A study of Mus musculus with 8 samples.

Results

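Mitosis in mammalian cells is started by Cdk1 bound to A- and B-type cyclins, a step that Wee1 holds back and Cdc25 phosphatases release. Aurora and Polo-like kinases then build the spindle and correct the attachment of chromosomes, kinetochores couple centromeres to microtubules, and the spindle assembly checkpoint keeps the anaphase-promoting complex (APC/C) off until all chromosomes are attached. Once Cdc20 has switched on the APC/C, securin and cyclin B are destroyed and separase cuts the cohesin that holds sister chromatids together. Primordial germ cells (PGCs) in the embryonic gonad multiply by mitosis before female germ cells enter meiosis, so that this machinery is in use in them.

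The genes described here are 41 mouse genes of this machinery (cyclins and kinases, the checkpoint, the kinetochore, mitotic motors and the proliferation markers *Top2a* and *Mki67*), listed by symbol for their known roles. The count table held 39 of them among 21950 genes, with *Sgol1* under its present symbol *Sgo1*, whereas *Cdca8* and *Foxm1* were not analysed here. Bulk RNA-Seq was compared between 4 libraries of d6PGCLCs and 4 libraries of E12.5 PGCs. PGCLCs resemble PGCs and are made in a dish from pluripotent cells. Those used here came from 1 BVSC-iPSC line, a mouse induced pluripotent line that carries the reporters Blimp1-Venus and Stella-ECFP. They were taken on day 8 of culture, which is 6 days after induction from epiblast-like cells, and were sorted for both reporters. The PGCs came from female gonads of C57BL/6J fetuses and were sorted for SSEA1 and integrin β3, without a reporter. Every library was a pool of sorted cells from an experiment of its own, so that a gene's level is an average over cells in all phases of the cell cycle. Since the d6PGCLCs come from a single line and were sorted in another way, effects of the line, culture, sort and cell type cannot be told apart. Stage is a further difference of this kind. The paper describes d6PGCLCs as comparable by transcription to migrating PGCs, which are at an earlier stage than those of E12.5.

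Counted reads per library ranged from 7991437 to 12024841, and 3 counts, the limit of what was taken as detected, corresponded to at most 0.383 CPM in any library (CPM are counts put on 1 scale by library total). Germ cell markers were present in both groups and summed to 3653 to 4233 CPM in d6PGCLCs and to 4274 to 4904 CPM in E12.5 PGCs. Of these 10 genes, 4 were higher and 4 lower in d6PGCLCs by the test described below. *Ddx4* was at 27.2 to 42.8 CPM in d6PGCLCs against 626 to 836 CPM in E12.5 PGCs, and *Prdm1* at 407 to 502 against 167 to 208 CPM. The summed level of 10 gonadal somatic markers was between 0.913 and 13.6 CPM in d6PGCLCs and between 3.79 and 8.94 CPM in E12.5 PGCs, against 9568 to 12511 CPM for the 39 mitotic genes. The highest of the somatic sums, in d6PGCLC library 4, was mostly *Col1a1* (11.8 CPM). By the same test *Col1a1* was higher in d6PGCLCs and 5 of the 10 were lower. The E12.5 PGC libraries 2 and 4 stood apart from the other PGC libraries. Library 2 had 727 CPM over 6 heat shock and dissociation genes (140 to 248 CPM in the other PGC libraries and 95.8 to 128 CPM in d6PGCLCs) and 43.4 CPM over 9 blood and endothelial markers (5.35 to 8.98 CPM in the other PGC libraries and 19.6 to 31.9 CPM in d6PGCLCs, there mostly *Cd68* and *Cdh5*), and library 4 had 97 counts over 5 Y-linked genes that were at 0 in all other libraries. Other marker lists also differed between the groups. Naive pluripotency genes summed to 594 to 655 CPM in d6PGCLCs and to 344 to 413 CPM in E12.5 PGCs (6 genes), and mesoderm and endoderm genes, mostly *Cdx2*, to 14.6 to 33.5 and 50.5 to 61.4 CPM (7 genes). Of the somatic markers, 7 of 10 did not exceed 3 counts in any d6PGCLC library and 1 of 10 did not in any PGC library. The part of these differences in the results was not tested. Counts of mitotic genes are given with and without these libraries.

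The mitotic genes were strongly expressed in both groups and most of them were at nearly the same level. Measured per length (RPKM, CPM divided by the deposited exonic width in kilobases), *Top2a*, the topoisomerase that untangles sister DNA, had the highest level, at 226 ± 33.2 RPKM in d6PGCLCs and 226 ± 28.9 RPKM in E12.5 PGCs (mean and SD of 4 libraries). *Cenpa*, the histone H3 variant of centromeres, followed with 189 ± 33.1 and 191 ± 22.9 RPKM, and *Ccna2* (cyclin A2) with 179 ± 14.8 and 180 ± 6.12 RPKM. In both groups the 4 highest genes were the same and in the same order, *Ccnb2* (cyclin B2) being the fourth, but these neighbours lay within or close to the spread between libraries. The lowest levels were those of *Cdc25b*, with 7.59 ± 1.03 RPKM in d6PGCLCs and 5.91 ± 0.510 RPKM in E12.5 PGCs, and *Aurkc*, with 1.82 ± 1.08 and 5.49 ± 0.811 RPKM. The order differed most for *Pttg1* (securin), which was number 13 in d6PGCLCs and number 32 in E12.5 PGCs, and for *Aurkb*, which was number 15 and number 25. The level of a gene depends on the transcript that was counted: 29 of the 39 genes were counted on at least 80% of the width of their longest coding transcript, and 3, *Birc5* (32.8%), *Bub1* (32.4%) and *Mad2l1* (19.5%), on under 50%. These shares are approximate, since the transcripts came from another annotation. It held an exact match for 4 of the 39 genes, and some shares exceeded 100% (115% for *Cdc20*).

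**Figure D1:**
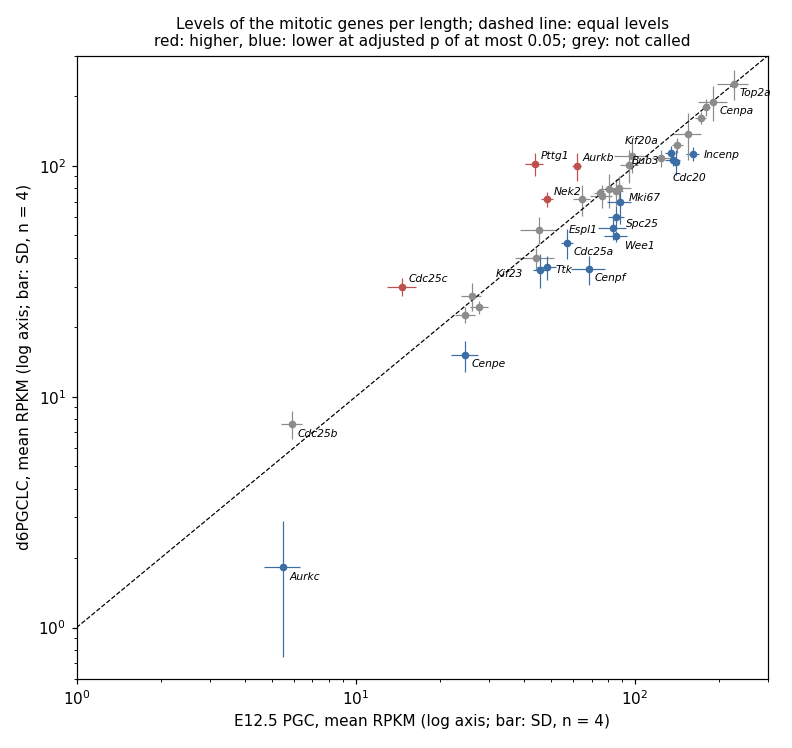
Mean level per length of each of the 39 mitotic genes in E12.5 PGCs (horizontal) and d6PGCLCs (vertical), in RPKM on log axes, with SD bars over 4 libraries; the dashed line marks equal levels and colours mark genes called higher (red) or lower (blue) in d6PGCLCs. Most points lie on or near the line, from *Top2a* at 226 RPKM downwards, while *Pttg1* (102 against 43.8 RPKM) and *Cdc25c* (30.0 against 14.7 RPKM) lie above it and *Aurkc* lies below it.

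Promoters of mitotic genes are known for 2 short elements, the CHR (TTTGAA, or TTCAAA on the other strand), which is bound by MuvB complexes, and the CCAAT box (CCAAT, or ATTGG on the other strand), which is bound by NF-Y. RefSeq windows (GRCm38.p6) from 250 bases before to 50 after a transcription start could be matched for 31 of the 39 genes, with 32 windows in all. The CHR letters were in 19 of the 32 windows (59.4%) and in 17.9% of all 32851 windows, and the CCAAT letters were in 26 (81.2%) and in 37.4%, both strands being searched. Both were present in 17 windows (53.1%, against 6.95% of all windows). In 121 windows of other mitotic genes the shares were 41.3% for the CHR, 49.6% for the CCAAT box and 28.9% for both. RefSeq places the start of 6 of the 32 windows over 100 bases inside the annotated gene, those of *Pttg1*, *Aurka*, *Kif2c*, *Sgo1*, *Cdc25b* and 1 of 2 for *Bub3*, so that these may not be the main promoter. Of the other 26 windows, 16 held the CHR letters and 22 the CCAAT letters. The 2 motifs can overlap each other by 1 base at most. The 100 bases before the start are shown for the 5 genes with the highest levels per length among those with a CHR in this stretch and at most 10 bases of it inside the annotated gene. *Mki67* and *Espl1*, both lower in d6PGCLCs, had a CHR there and higher levels than *Cdk1*. They are not shown, since 71 and 39 bases of their stretches lie inside the gene. The stretches were read 5′ to 3′ on the strand of the gene, and capitals mark every CHR and CCAAT match. *Top2a* is on the minus strand at chr11:99024190-99024289, *Cdc20* on the minus strand at chr4:118437344-118437443, *Bub3* on the plus strand at chr7:131560270-131560369, *Kif11* on the plus strand at chr19:37376282-37376381, and *Cdk1* on the minus strand at chr10:69352913-69353012.
Top2a: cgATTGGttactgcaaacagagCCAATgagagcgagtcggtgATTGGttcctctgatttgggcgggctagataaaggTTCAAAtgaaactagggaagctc
Cdc20: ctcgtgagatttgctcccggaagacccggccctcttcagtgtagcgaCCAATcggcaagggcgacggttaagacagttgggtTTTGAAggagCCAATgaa
Bub3: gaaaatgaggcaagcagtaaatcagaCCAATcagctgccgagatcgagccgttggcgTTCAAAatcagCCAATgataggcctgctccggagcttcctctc
Kif11: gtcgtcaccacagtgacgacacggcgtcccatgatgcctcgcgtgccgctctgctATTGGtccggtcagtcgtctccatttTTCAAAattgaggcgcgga
Cdk1: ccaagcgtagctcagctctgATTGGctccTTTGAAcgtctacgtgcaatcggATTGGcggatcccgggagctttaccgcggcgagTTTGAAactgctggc

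In these stretches the CHR nearest the start began 23 bases before it in *Top2a*, 18 in *Cdc20*, 43 in *Bub3*, 19 in *Kif11* and 15 in *Cdk1*, each with at least 1 CCAAT match upstream. These promoters belong to genes with unlike outcomes, since *Top2a*, *Kif11* and *Cdk1* did not pass the test between d6PGCLCs and E12.5 PGCs and *Cdc20* and *Bub3* were lower. Split by outcome, the CHR letters were in 8 of 11 matched genes that were lower, in 10 of 18 that did not pass and in neither of the 2 matched genes that were higher, *Nek2* and *Pttg1*, whose window is at an internal start 1482 bases inside the gene. The higher genes *Cdc25c* and *Aurkb* had no matched window, nor had the lower genes *Wee1*, *Incenp* and *Kif20a*. The matched higher genes are too few to compare with the other outcomes. *Mad2l1*, *Birc5* and *Nuf2*, and *Pttg1* at that internal start, had neither motif in the window. A match is a description of letters in a window of fixed length, and no binding was measured.

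Between d6PGCLCs and E12.5 PGCs, 18 of the 39 mitotic genes differed, 4 being higher and 14 lower in d6PGCLCs (edgeR's quasi-likelihood test, with p adjusted by Benjamini-Hochberg over all 21950 genes and 0.05 as the limit). Among all genes counted, 31.5% were called, 16.1% higher and 15.4% lower. Since mitotic genes have many counts, genes counted at least 100 times per library on average, as 38 of the 39 were, are the closer background: 54.1% of these were called, 28.3% higher and 25.8% lower. Of those 38, 17 were called (44.7%), below that share. The differences were small. Their log2 fold changes, always d6PGCLC over E12.5 PGC, had a median of -0.15 and ran from -1.59 to 1.22, and 28 of 39 were within 0.5 of 0. The median size of the change, regardless of direction, was 0.217 (log2), against 0.355 for all well-counted genes. A change of at least 1 (log2) was called for 2 of the 38 well-counted mitotic genes, *Pttg1* and *Cdc25c*, and for 13% of all well-counted genes. *Aurkc*, which has fewer counts, also passed it. None reached the threshold of the study, an adjusted p of at most 0.05 together with a log2 fold change of 2 or more in either direction, which 6.62% of all genes and 3.26% of well-counted genes passed with edgeR. Without the fold threshold, 21 of the 39 had an unadjusted p under 0.05, as had 5036 of 8128 well-counted genes. DESeq2 called 21 at an adjusted p of at most 0.05, and 7087 of all genes. It also gave 0 of the 39 with the fold threshold. The exception was 1 gene, *Aurkc*, when d6PGCLC library 2 was left out. The d6PGCLC and PGC libraries did not overlap for 15 of the 39 genes, among them 14 of the 38 well-counted ones (36.8%, below the 51.8% of all well-counted genes). Without E12.5 PGC libraries 2 and 4, 17 were called, 4 of them higher and 13 lower. Of all 21950 genes, 5782 were called without these libraries and 6919 with them.

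The reads of the 39 genes together made up 1.12, 1.02, 0.959 and 1.08% of the counted reads in the d6PGCLC libraries and 1.25, 1.17, 1.26 and 1.22% in the E12.5 PGC libraries. On this raw scale every PGC library was above every d6PGCLC library. After normalization the sums were 11559, 10376, 9568 and 10796 CPM in d6PGCLCs and 12450, 11151, 12511 and 12342 CPM in E12.5 PGCs, and the groups overlapped. In bulk samples a smaller share of cells in mitosis and less RNA per such cell cannot be told apart.

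**Figure D2:**
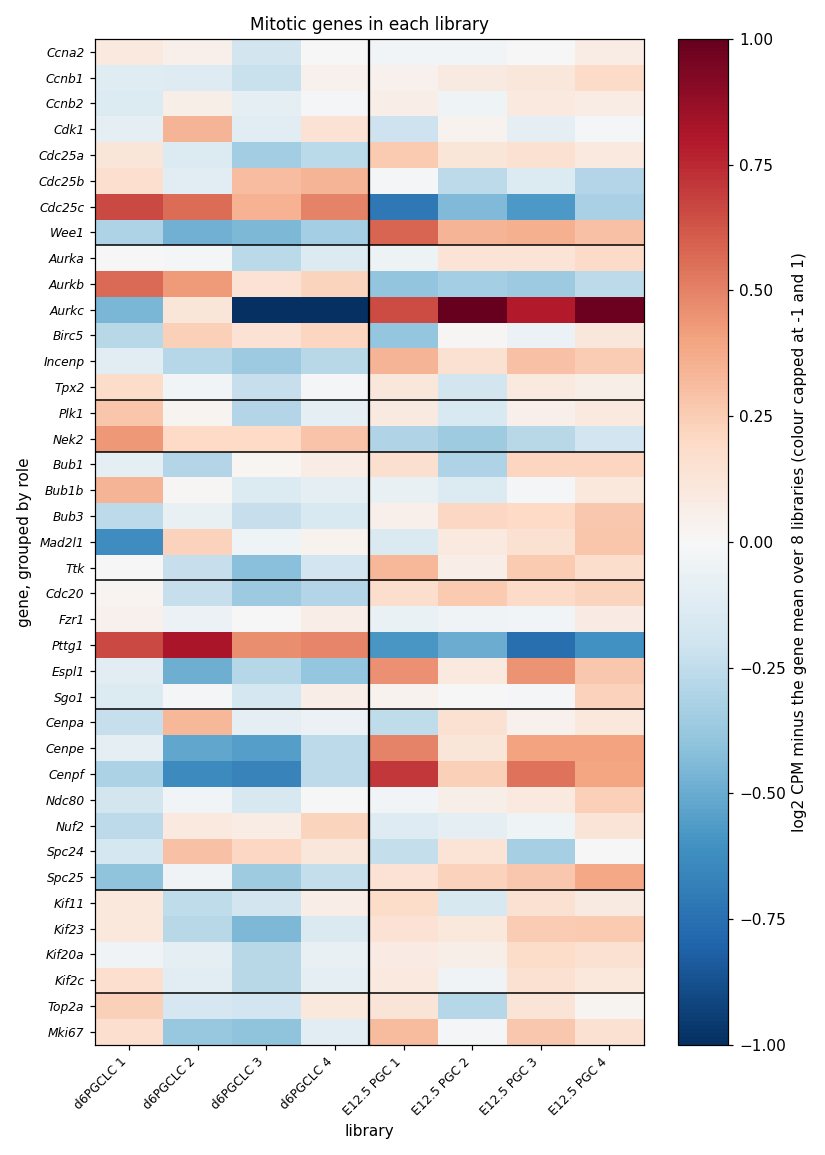
Level of each mitotic gene in each of the 8 libraries as log2 CPM minus the mean of that gene over the libraries, red above and blue below the mean, with colours capped at -1 and 1 and genes grouped by role. *Pttg1*, *Cdc25c*, *Aurkb* and *Nek2* are higher in all 4 d6PGCLC libraries, *Wee1*, *Cenpf* and *Aurkc* are lower in them, and rows such as *Ccna2*, *Fzr1* and *Cenpa* differ little between the groups.

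Of 8 genes of Cdk1 and its regulators, which decide when a cell enters mitosis, 1 was higher (*Cdc25c*) and 2 were lower (*Wee1* and *Cdc25a*), which is 37.5% called against 54.1% of well-counted genes. Counts by role, here and below, rest on few genes and were not tested against other genes. *Cdk1* had a log2 fold change of 0.15 (SE 0.10, adjusted p = 0.338 by edgeR) and *Ccna2* of -0.01 (SE 0.08). *Ccnb1* (Entrez 268697, chr13:100778739-100786486 in GRCm38), cyclin B1, was at 324, 323, 303 and 363 CPM in the d6PGCLC libraries and at 363, 375, 382 and 403 CPM in the E12.5 PGC libraries. The highest d6PGCLC value just exceeded the lowest PGC value, and the log2 fold change of -0.21 (SE 0.08) narrowly missed the threshold (edgeR adjusted p = 0.0597). It passed in 9 of 19 alternative analyses, among them the one without d6PGCLC library 4. *Ccnb2* (Entrez 12442, chr9:70407689-70421554) was at 287, 329, 296 and 313 CPM against 332, 307, 338 and 332 CPM, with overlapping groups and a log2 fold change of -0.10 (SE 0.08, edgeR adjusted p = 0.494).

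*Cdc25c* (Entrez 12532), 1 of the 3 phosphatases that remove the inhibitory phosphates from Cdk1, was higher in d6PGCLCs, at 89.5, 83.4, 71.9 and 79.6 CPM against 34.4, 41.6, 37.9 and 45.2 CPM in E12.5 PGCs. All d6PGCLC libraries were far above all PGC libraries, and the log2 fold change was 1.02 (SE 0.11, adjusted p = 3.32e-07 by edgeR). *Cdc25a* (Entrez 12530, chr9:109875518-109893895), the phosphatase that also acts earlier in the cycle, went the other way, with 190, 159, 137 and 144 CPM against 209, 189, 194 and 187 CPM. d6PGCLC library 1 lay within the range of the PGC libraries, and the log2 fold change was -0.31 (SE 0.10, edgeR adjusted p = 0.0217). This call was lost without d6PGCLC library 3 or 4 or without PGC library 1 or 3, with adjusted p values up to 0.0849. *Cdc25b* (Entrez 12531, chr2:131186436-131198511), the third, was at 27.2, 22.4, 30.0 and 30.7 CPM against 23.8, 20.2, 21.9 and 19.8 CPM. Its groups overlapped, and the log2 fold change of 0.36 (SE 0.14) did not pass with edgeR (adjusted p = 0.0577) but did so in 8 of the 19 alternatives, including those without d6PGCLC library 1 or 2 or PGC library 1. *Wee1* (Entrez 22390, chr7:110122059-110143299), the kinase that places the inhibitory phosphate on Cdk1, was at 202, 180, 184 and 198 CPM in d6PGCLCs and at 376, 318, 321 and 307 CPM in E12.5 PGCs. The groups were wide apart, and the log2 fold change was -0.79 (SE 0.09, adjusted p = 3.97e-07 by edgeR).

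The Aurora kinases diverged. *Aurkb* (Entrez 20877, chr11:69045624-69051664), the kinase of the chromosomal passenger complex that corrects attachments at centromeres, was at 264, 239, 197 and 208 CPM in d6PGCLCs and at 136, 141, 139 and 148 CPM in E12.5 PGCs. It was higher in every d6PGCLC library, with a log2 fold change of 0.69 (SE 0.10, adjusted p = 8.37e-06 by edgeR). *Aurkc* (Entrez 20871, chr7:6995347-7003091), its relative best known from meiosis, was at 3.06, 4.58, 1.58 and 1.21 CPM in d6PGCLCs and at 6.61, 9.26, 7.28 and 8.30 CPM in E12.5 PGCs. The groups did not overlap, although this was the least counted of the 39 genes, with a mean of 51.25 counts. Its log2 fold change of -1.59 (SE 0.31, adjusted p = 2.54e-04 by edgeR) ran from -2.04 to -1.38 over the alternatives. *Aurka* (Entrez 20878, chr2:172356190-172370886), which acts at spindle poles, was at 261, 259, 216 and 238 CPM against 252, 287, 287 and 297 CPM. d6PGCLC libraries 1 and 2 were within the PGC range, and the log2 fold change of -0.21 (SE 0.09) did not pass with edgeR (adjusted p = 0.0928). It passed in 9 of the 19 alternatives, among them those without d6PGCLC library 1 or PGC library 1.

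The scaffold of the chromosomal passenger complex, *Incenp* (Entrez 16319, chr19:9872295-9899489), was lower while its kinase *Aurkb* was higher. *Incenp* was at 466, 414, 393 and 418 CPM in d6PGCLCs and at 640, 562, 621 and 603 CPM in E12.5 PGCs, without overlap, and had a log2 fold change of -0.52 (SE 0.08, adjusted p = 4.10e-05 by edgeR). *Birc5*, survivin, another subunit, had a log2 fold change of 0.16 (SE 0.12, edgeR adjusted p = 0.373), and passed in 1 alternative, without d6PGCLC library 1. *Tpx2*, which activates Aurora A on the spindle, had one of -0.04 (SE 0.10).

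*Nek2* (Entrez 18005, chr1:191821449-191833049), a kinase that separates centrosomes, was higher, whereas *Plk1* was not distinguishable between the groups. *Nek2* was at 185, 157, 157 and 166 CPM in d6PGCLCs and at 111, 107, 113 and 120 CPM in E12.5 PGCs. The groups did not overlap (log2 fold change 0.56, SE 0.09, adjusted p = 4.32e-05 by edgeR). *Plk1*, the Polo-like kinase of mitotic entry and exit, had 180 ± 29.9 CPM in d6PGCLCs, against 184 ± 14.4 CPM in the PGC libraries (SD, n = 4).

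In the spindle assembly checkpoint, 2 of 5 genes were called (40%, against 54.1% of well-counted genes), both lower. *Ttk* (Entrez 22137, chr9:83834651-83872390), the kinase Mps1 that starts the checkpoint signal, was at 158, 135, 118 and 139 CPM in d6PGCLCs and at 199, 166, 189 and 179 CPM in E12.5 PGCs. No d6PGCLC value reached the lowest PGC value, with a log2 fold change of -0.42 (SE 0.10, adjusted p = 0.00210 by edgeR). *Bub3*, which brings Bub1 and BubR1 to kinetochores, was lower, with 252 ± 15.1 CPM against 325 ± 20.4 CPM (SD, n = 4). This was a log2 fold change of -0.36 (SE 0.09, adjusted p = 0.00186 by edgeR). The values of *Bub1* (-0.15), *Bub1b*, which encodes BubR1 (0.07), and *Mad2l1*, which encodes Mad2 (-0.17), had standard errors between 0.10 and 0.13 and did not pass. *Bub1* and *Mad2l1* are 2 of the 3 genes counted on less than 50% of their longest coding transcript.

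Control of anaphase held the largest difference of the 39 genes in the upward direction, and its partner moved the opposite way. *Pttg1* (Entrez 30939, chr11:43420244-43427463), securin, which binds and inhibits separase, was at 195, 217, 171 and 173 CPM in d6PGCLCs and at 82.6, 87.4, 73.0 and 80.9 CPM in E12.5 PGCs. Every d6PGCLC library was far above every PGC library, with a log2 fold change of 1.22 (SE 0.10, adjusted p = 3.86e-09 by edgeR). *Espl1* (Entrez 105988, chr15:102296254-102324357), separase itself, was at 488, 376, 432 and 405 CPM in d6PGCLCs and at 726, 565, 722 and 636 CPM in E12.5 PGCs. Here the d6PGCLC libraries were all below the PGC libraries, and the log2 fold change was -0.64 (SE 0.10, adjusted p = 2.33e-05 by edgeR). *Cdc20* (Entrez 107995, chr4:118432901-118437343), the co-activator that turns the APC/C on at anaphase, was at 312, 259, 237 and 249 CPM against 345, 367, 349 and 357 CPM. It did not overlap between the groups and had a log2 fold change of -0.42 (SE 0.09, adjusted p = 8.85e-04 by edgeR). *Fzr1*, the co-activator Cdh1 used later in mitotic exit and G1, was at 202 ± 7.61 CPM and 199 ± 9.22 CPM, and *Sgo1*, shugoshin, which protects centromeric cohesin, at 67.7 ± 5.37 and 74.1 ± 6.11 CPM (SD, n = 4 libraries each). Neither of these passed.

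Of the 7 genes of the centromere and outer kinetochore, 3 were called (42.9%, against 54.1% of well-counted genes), all of them lower. *Cenpf* (Entrez 108000, chr1:189640606-189688107), a large protein of the outer kinetochore, was at 467, 373, 366 and 484 CPM in d6PGCLCs and at 948, 685, 846 and 762 CPM in E12.5 PGCs. The groups were clearly apart (log2 fold change -0.94, SE 0.11, adjusted p = 5.80e-07 by edgeR). *Cenpe* (Entrez 229841, chr3:135212563-135273540), the kinesin that moves chromosomes to the spindle equator, was at 175, 129, 127 and 155 CPM against 262, 201, 246 and 246 CPM, again without overlap. It had a log2 fold change of -0.71 (SE 0.11, adjusted p = 2.31e-05 by edgeR). *Spc25* (Entrez 66442, chr2:69193895-69206213), a subunit of the Ndc80 complex that binds microtubules, was at 89.6, 115, 92.4 and 100 CPM against 131, 139, 143 and 154 CPM. This difference also separated all libraries (log2 fold change -0.51, SE 0.10, adjusted p = 3.29e-04 by edgeR). The other subunits of the complex did not pass, with log2 fold changes of -0.19 for *Ndc80*, 0.07 for *Nuf2* and 0.22 for *Spc24* and standard errors between 0.10 and 0.13. *Cenpa* had a log2 fold change of -0.02 (SE 0.11).

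Of the 4 mitotic kinesins, 2 were called (50%, against 54.1% of well-counted genes), both lower. *Kif23*, a motor of the central spindle in cytokinesis, was at 91.5 ± 15.2 CPM against 118 ± 6.60 CPM in E12.5 PGCs, with overlapping libraries (log2 fold change -0.37, SE 0.11, edgeR adjusted p = 0.0112). Its adjusted p was 0.0512 without d6PGCLC library 3. *Kif20a*, another motor of cytokinesis, was at 494 ± 34.9 and 583 ± 24.1 CPM (log2 fold change -0.24, SE 0.08, edgeR adjusted p = 0.0314). That call was lost without d6PGCLC library 3, without PGC library 3 or 4, and without PGC libraries 2 and 4 together, with adjusted p values between 0.0850 and 0.122. *Kif11*, which pushes spindle poles apart (-0.13, SE 0.10), and *Kif2c*, which depolymerizes microtubules (-0.15, SE 0.10), did not pass, except for *Kif2c* without d6PGCLC library 1. Of the 2 proliferation markers, *Top2a* had a log2 fold change of 0.00 (SE 0.11) and *Mki67*, which coats mitotic chromosomes, one of -0.35 (SE 0.11, edgeR adjusted p = 0.0180). *Mki67* overlapped between the groups and was not called without d6PGCLC library 2 or 3 or PGC library 1 or 3, with adjusted p values up to 0.0636.

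Several of the genes that were lower have long transcripts, with deposited widths of 11842 bases for *Cenpf*, 10635 for *Mki67*, 9653 for *Cenpe* and 7924 for *Espl1*. With each library adjusted for a trend with width (a loess offset), the log2 fold changes of these 4 genes were -0.71, -0.17, -0.54 and -0.52, and *Mki67* was not called (adjusted p = 0.0952). In this fit 22 mitotic genes were called, 4 higher and 18 lower. Of all 21950 genes, it called 7334, against 6919 without the offset. Across the 39 genes, which are not independent replicates, the log2 fold change and log10 width had a Pearson correlation of -0.27.

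**Figure D3:**
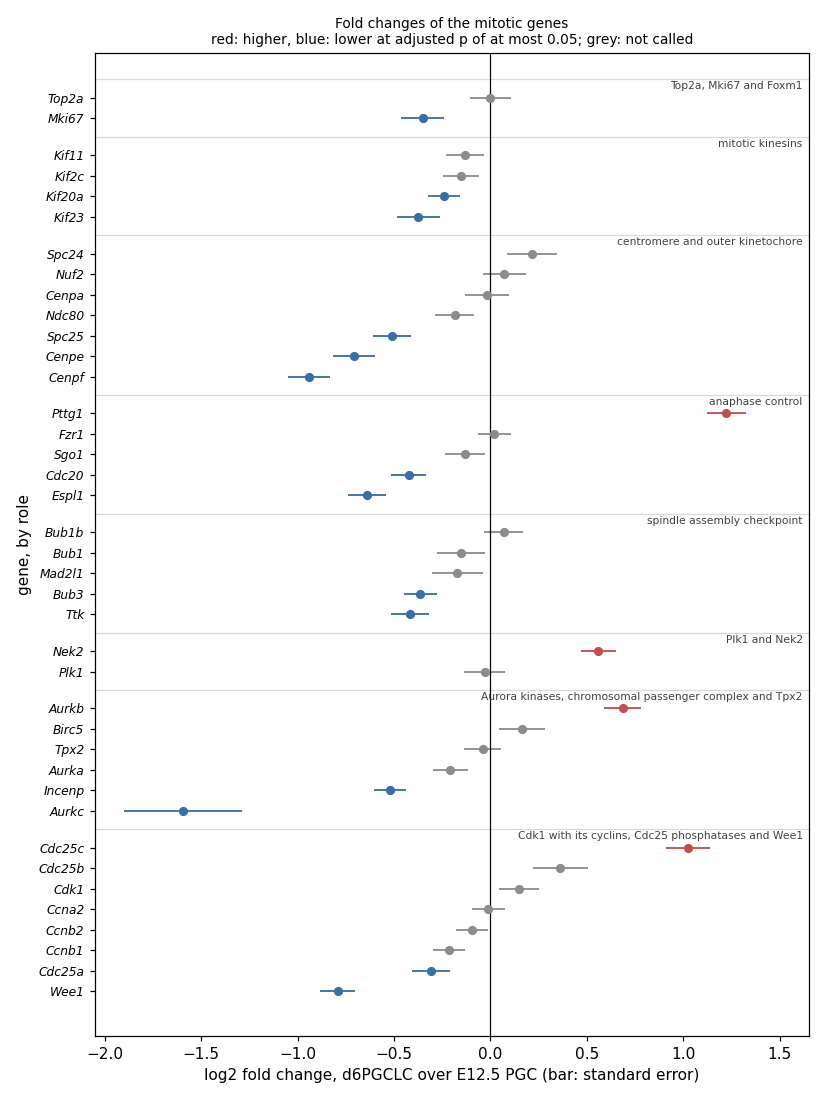
Log2 fold change of each mitotic gene, d6PGCLC over E12.5 PGC, with its standard error, by role; red and blue mark genes called higher and lower by edgeR, grey those not called. The 4 red genes, from *Nek2* (0.56) to *Pttg1* (1.22), belong to 4 different roles, and most other genes lie between -0.5 and 0.5.

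Ratios between members of 1 family or step, taken within a library and per length, do not depend on the scaling between libraries. Of 12 such ratios, 9 did not overlap between the groups, each with p = 0.0286 in a two-sided exact permutation test, the smallest that the 70 arrangements of the 8 libraries allow, and 0.0381 after Benjamini-Hochberg adjustment over the 12. The pairs were picked with the fold changes of their members known, so that these tests do not add independent support to those above. How many other gene pairs separate the groups was not computed, and 51.8% of single well-counted genes did not overlap. The securin gene stood at 1.90 times the level of the separase gene in d6PGCLCs and at 0.526 times in E12.5 PGCs (a difference of 1.86 in the log2 ratio of *Pttg1* to *Espl1*). The ratio of *Aurkb* to *Aurka* was 0.921 in d6PGCLCs and 0.498 in E12.5 PGCs, and that of *Aurkc* to *Aurkb* was 0.0165 and 0.0886. Among the phosphatases, *Cdc25c* was at 0.650 times the level of *Cdc25a* in d6PGCLCs and at 0.256 times in E12.5 PGCs, and the ratio of *Cdc25b* to *Cdc25a* was 0.164 and 0.103. *Wee1* to *Cdc25a* went from 1.49 in E12.5 PGCs to 1.08 in d6PGCLCs. The subunits *Spc25* and *Spc24* stood at a ratio of 1.15 in d6PGCLCs and 1.90 in E12.5 PGCs. *Fzr1* to *Cdc20* was 0.734 and 0.536, and *Ccna2* to *Ccnb1* was 1.46 and 1.27. Not separated were *Ccnb2* to *Ccnb1* (exact p = 0.143), *Bub1b* to *Bub1* (exact p = 0.229) and *Bub3* to *Bub1* (exact p = 0.314), with differences of 0.12, 0.20 and -0.22 in the log2 ratio.

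**Figure D4:**
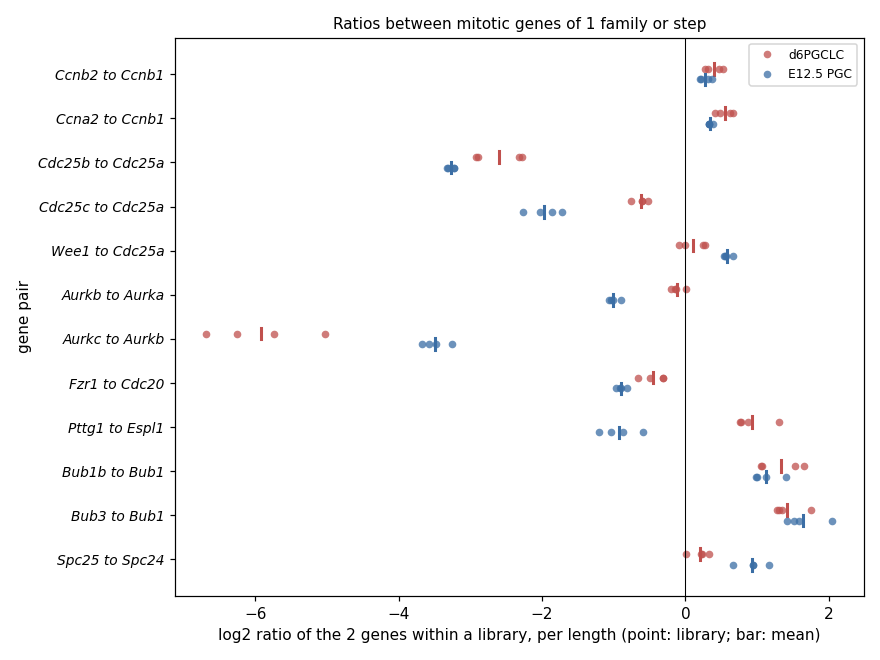
Log2 ratio of 2 mitotic genes within each library, per length, for 12 pairs; points are libraries (red d6PGCLC, blue E12.5 PGC) and vertical bars are group means. The groups lie furthest apart for *Aurkc* to *Aurkb* and for *Pttg1* to *Espl1*, whose points are above 0 in d6PGCLCs and below 0 in E12.5 PGCs, and they overlap for both *Bub1* pairs and for *Ccnb2* to *Ccnb1*.

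Genes that work with these 39 were described from lists of other mitotic genes. Of 114 such genes, 51 were called, 26 higher and 25 lower. Of the 102 that had a mean of at least 100 counts, 47 were called (46.1%, against 54.1% of all well-counted genes). The median change of the 114 was -0.04 (log2). Without E12.5 PGC libraries 2 and 4 the number called was 40, with 5782 instead of 6919 genes called in all. The lists are small, and their counts are to be read against the 28.3% higher and 25.8% lower among well-counted genes, with no test of a list. The APC/C and its ubiquitin-conjugating enzymes had 6 of 11 genes called (54.5%, against 54.1% of well-counted genes). All 6 were lower, led by *Anapc13* (-0.50), *Anapc15* (-0.46) and *Anapc4* (-0.45). Of the 11, 10 had a mean of at least 100 counts, and *Cdc16*, which did not, was not called. Among 5 genes that restrain the APC/C or silence the checkpoint, 3 of them with a mean of at least 100 counts, 2 were higher. These were *Mad2l2* (1.01, SE 0.13), from 25.8 ± 2.62 to 52.2 ± 7.17 CPM, and *Fbxo5*, the inhibitor Emi1 (0.35, SE 0.10), from 166 ± 19.5 to 211 ± 15.4 CPM (SD, n = 4 libraries each). Mad2l2 is also known for work outside the APC/C, in translesion DNA synthesis and repair. The constitutive centromere network had 1 of 17 genes higher, *Cenpk* (0.84), and 4 lower, with *Cenpm* (-0.63) and *Cenpl* (-0.46) the largest by size. In the Knl1, Mis12, Ska and RZZ complexes, 2 of 10 were higher, *Zw10* (0.70) and *Zwint* (0.31), and *Spdl1* (-0.35) was lower.

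Condensins and other mitotic chromatin genes had 4 of 11 higher and 2 lower, with *Cdca3* (0.63), *Cdca7* (0.54) and *Cdca5*, sororin, which stabilizes cohesin (-0.45), named by size. Of 22 spindle and cytokinesis genes, 1 was higher, *Cep55* (0.63), which acts in abscission, and 6 were lower, led by *Kif18a* (-0.65) and *Aspm* (-0.61). Of 16 transcription factors that switch mitotic genes on and off, 8 were higher and 2 lower (62.5% called, against 54.1% of well-counted genes), with a median of 0.32. Whether this list differs from other genes was not tested. *Mybl2* (B-Myb), which joins MuvB at CHR promoters, was at 689 ± 52.3 CPM against 433 ± 9.15 CPM in E12.5 PGCs (log2 fold change 0.67, SE 0.08, adjusted p = 1.19e-06 by edgeR). *Rbl1* (p107), a repressor with MuvB, had 0.78 and *E2f2* had 0.64. Among kinases and phosphatases of mitotic entry and its DNA damage brake, 5 of 13 were higher and 2 lower, with *Ppp2r5c* (0.98), *Chek2* (0.73) and *Gadd45a* (0.64) the largest. Of 9 counterparts used in meiosis, 3 were higher and 2 lower (55.6% called, against 31.5% of all genes). Only *Sgo2a* (0.76, SE 0.09) and the meiotic cohesin *Rec8* (0.75, SE 0.16) of these had a mean of at least 100 counts. The 2 lower genes, *Majin* (-2.26) and *Ccnb3* (-2.14), passed the fold threshold of the study, but at means of 6.25 and 5.88 counts.

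DNA replication genes, which serve another phase of the cycle, were taken for comparison. Of 25, 4 were higher and 8 lower (48% called, against 54.1% of well-counted genes). Their median was -0.05 against -0.15 for the 39 mitotic genes, and no test between these lists was run. *Rrm2*, a subunit of ribonucleotide reductase, had the largest change (0.93), from 388 ± 25.2 to 741 ± 74.1 CPM (SD, n = 4 libraries each). Summed over the list, replication genes were at 7120 to 7889 CPM in d6PGCLCs and at 7792 to 8261 CPM in E12.5 PGCs, which overlapped.

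**Figure D5:**
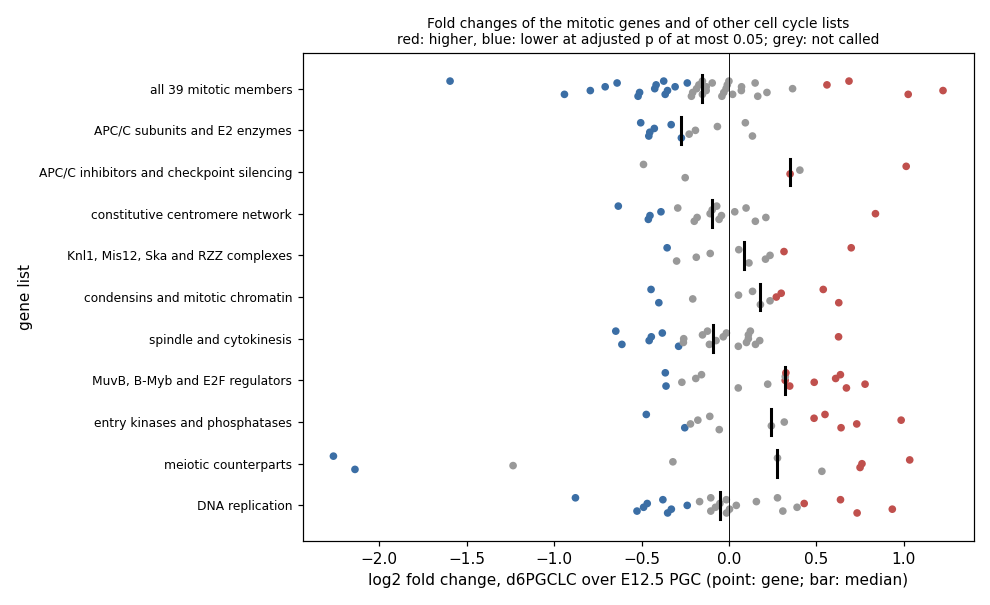
Log2 fold change, d6PGCLC over E12.5 PGC, of the 39 mitotic genes and of each list of related genes; points are genes, red and blue if called higher or lower by edgeR and grey if not, and black bars are list medians. The medians of the lists lie close to 0 and start at -0.27 for the APC/C list (6 blue and no red points). They end at 0.35 for the mixed list of APC/C inhibitors and checkpoint silencing (2 red and no blue points). No list was tested against other genes.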

How the data were processed

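The table that the authors deposited gives unnormalized read counts (unique alignments) for each Entrez identifier and the width of the counted exons in base pairs. Per the labels and the study's methods, single-end reads of stranded mRNA libraries were aligned with STAR to GRCm38 and counted with QuasR on 1 isoform per gene, drawn at random from TxDb.Mmusculus.UCSC.mm10.knownGene 3.2.2, and genes whose promoters overlapped were thinned at random. Genes expressed from other exons are undercounted, and reads shared by near-identical genes are lost. Use of strand in the counting is not given in the sources used here. Where an isoform could be matched, the deposited width exceeded exon length by 40 bases per exon, which lowers the RPKM of genes with many short exons.

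Symbols and coordinates came from RefSeq (GRCm38.p6), which matched 21907 of 21950 identifiers, and 4940 genes had no counts. Counts were normalized by TMM and fitted in R 4.3.3 with edgeR 4.0.16 (glmQLFit, glmQLFTest), with no filter, a prior count of 0.125 and a term for cell type alone. The likelihood ratio test, DESeq2 1.42.0, other size factors, filters on low counts, a prior count of 2, a replicate block, a loess offset on width (span 0.5) and leaving out libraries were alternatives. CPM used TMM-scaled totals, and RPKM divided CPM by width. Ratios used counts plus 0.5, divided by width. Limits of detection (3 counts) cover counting error only, since reads carry no molecular identifiers.

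The mitotic genes, the other lists, the gene pairs and the alternatives were chosen with earlier results of these data known. Given in full are up to 8 called genes per direction with the largest change (mean of at least 100 counts) and the cyclin B, Cdc25 and Aurora families. Of each other list, up to 3 called genes with the largest change and a mean of at least 100 counts are named, and *Majin* and *Ccnb3* with fewer. Replicates were pools of cells from separate experiments. Within each group, every pair of libraries differed by more than counting noise (chi-square over degrees of freedom from 3.33 to 21.9). Simulated counts for this comparison covered 21950 genes, of which 200 were changed, all with a mean of at least 100 counts. The test recovered 41 of 67 changes of 0.5 (log2), 66 of 67 of 1 and 66 of 66 of 2. It also called 36 of 21750 unchanged genes, so that false calls were a larger share of all calls than the limit of 0.05. Far fewer genes were changed than the 6919 called in the data, so that both rates may differ there.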

Additional observations from a re-analysis of the deposited data

Results flagged for a closer look

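Among 78 sets of 4 libraries (39 genes in either group), 1 library lay far from the other libraries of its group. *Bub1*, a checkpoint kinase, was at 48.2 CPM in E12.5 PGC library 2 and between 66.7 and 69.2 CPM in the other PGC libraries so that the gap to its nearest neighbour was 0.885 of the whole range, above Dixon's limit for 4 values. Chance alone gives about 1 in 20 such sets, here 3.9. The same library had the highest level of heat shock and dissociation genes, whose part in this value was not tested. Without E12.5 PGC libraries 2 and 4, the log2 fold change of *Bub1* was -0.25 and it was not called.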

How the results depend on the processing

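Over 19 alternatives, 14 of the 18 called mitotic genes kept their call and direction in every one. The exceptions were *Cdc25a*, *Kif23*, *Kif20a* and *Mki67*, and 8 of the 21 genes not called passed in at least 1. No called gene changed sign. For genes that were not called, the sign turned for *Fzr1* with library size only (-0.014), upper quartile (-0.017) and the width offset (-0.081), for *Nuf2* (-0.012) and *Top2a* (0.073) with the width offset, and for *Ccna2* (0.0099) and *Cenpa* (0.10) without PGC libraries 2 and 4. When single libraries were left out, log2 fold changes ran from -0.046 to 0.042 for *Ccna2*, from -0.11 to 0.023 for *Tpx2*, from -0.14 to 0.053 for *Plk1*, from -0.045 to 0.12 for *Bub1b*, from -0.15 to 0.052 for *Cenpa* and from -0.086 to 0.058 for *Top2a*. The number of mitotic genes called was between 14 and 22, and that past the fold threshold between 0 and 1. Among all genes, between 5782 and 7334 were called. Replicate numbers did not pair the samples consistently. Correlations of deviations were 0.28, 0.11, -0.02 and 0.04 for same-numbered libraries and -0.18 to 0.12 for differently numbered ones. Only the pair of number 1 lay above that range. A replicate block called 21 mitotic genes, and 7270 instead of 6919 genes in all. Both ratio pseudocounts separated 9 ratios. Ratios with a library left out were too few for the exact test and were read as values. No scaling moved the median of well-counted genes by over 0.1. Depth limits *Aurkc* most, since its d6PGCLC values are at few counts per library.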
